A study of Mus musculus with 5 samples.

Results

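Lysosome and autophagy genes were followed in melanocyte stem cells at rest and in melanocytes of mouse back skin. The set holds 40 genes, taken by name from the 24100 genes of the deposited count table. Of these, 22 encode lysosomal hydrolases, their cofactors and lysosomal membrane proteins, and 18 encode autophagy proteins. All 40 were found in the table and all passed the filter for low counts, and the smallest count of any of them in any library was 331.

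RNA from sorted cells was sequenced with a poly-A based kit in 5 libraries, all from male mice of a CD1/C57Bl6J mix. The quiescent melanocyte stem cells (quiescent McSC, 2 libraries) came from Dct-eGFP+ animals at postnatal days 60 and 62, in the second telogen, the resting phase of the hair cycle, with 4 males pooled per library. The melanocytes (3 libraries) came from Dct-EGFP+ Lef1-RFP+ animals at postnatal day 10, in full anagen, the growth phase, with 3, 2 and 4 males pooled in replicates 1, 2 and 3. Both gates took Dct reporter positive cells of medium to low integrin α6 that lacked CD31, CD45, CD140a, Sca1 and CD34, and the melanocyte gate also required the Lef1 reporter and c-Kit. Cell type therefore changes together with age, stage of the hair cycle, reporter genotype and gate, and their effects cannot be told apart. The comparison asks how the RNA of these genes differs between resting stem cells and their differentiated counterparts. In bulk libraries such as these, fewer cells of a type and less RNA per cell cannot be told apart.

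The lysosome is an acidic, membrane-bound compartment in which hydrolases break down proteins, glycans and lipids that arrive by endocytosis or autophagy. In autophagy, the ULK1 complex and the phosphatidylinositol 3-kinase complex of beclin 1 start a cup-shaped membrane, ATG proteins couple ATG8 proteins (the LC3 and GABARAP families) to its lipids, and receptors such as p62 tie cargo to ATG8 before the closed vesicle fuses with a lysosome. Transcription factors of the MiT/TFE family, to which MITF of the melanocyte lineage belongs, bind the CLEAR element in promoters of many lysosomal genes. Melanosomes, the pigment organelles of melanocytes, are related to lysosomes and share part of their biogenesis machinery.

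The stem cell libraries held 67483295 and 124530834 counts, and melanocyte libraries 1, 2 and 3 held 36502516, 67275054 and 17512381. Levels are given as CPM, counts scaled to TMM-adjusted library sizes. The summed level of 9 melanocyte markers was 20250 and 21680 CPM in the quiescent McSC libraries and 3021, 17670 and 19250 CPM in melanocyte replicates 1 to 3, so replicate 1 stood apart from the other melanocyte libraries. Dct, at 10440 and 11530 CPM in quiescent McSC, makes up much of that sum. Of the 9 markers, Sox10, Mitf, Kit and Pax3 were called higher in quiescent McSC (3.52, 10.9, 4.38 and 21.3-fold), and Dct, Tyr, Tyrp1, Pmel and Mlana were not called. All 7 fibroblast and dermal papilla markers were higher in melanocytes, with summed levels of 5240, 2006 and 1877 CPM in replicates 1 to 3 against 39.8 and 11.6 CPM. All 8 hair follicle and shaft markers were also higher there (2435 to 3924 CPM against 44.6 and 30.6 CPM), and Krt34 was at 0 in both quiescent McSC libraries. Of 9 keratinocyte markers, 4 were higher in each group. Their summed level was 3065 and 4202 CPM in quiescent McSC and 4962, 4338 and 3615 CPM in melanocyte replicates 1 to 3. Krt1, Krt10, Krt15 and Krtdap were higher in quiescent McSC (20.6, 23.6, 3.91 and 32.3-fold). Krt5, Trp63, Dsp and Sfn were higher in melanocytes (2.05, 7.24, 3.60 and 2.77-fold). Of 10 macrophage and immune markers, 8 were higher in melanocytes, and Cd14 and Cd207 were higher in quiescent McSC. Cd14 alone stood at 173.6 and 175.5 CPM in quiescent McSC, against 2.20 to 2.98 CPM in melanocytes. The other 9 summed to 2.10 and 3.77 CPM in quiescent McSC and to 75.4, 39.2 and 58.1 CPM in melanocyte replicates 1 to 3. All 10 immediate early and dissociation genes were higher in quiescent McSC (26040 and 40830 CPM against 2241 to 2568 CPM). The part of these other genes in the results on lysosome and autophagy genes was not tested.

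Because MiT/TFE factors are known to act through the CLEAR element, the promoter windows of the genes, from 250 bases before to 50 bases after a RefSeq transcript start (GRCm38.p6), were searched on both strands for its inner bases TCACGTGA and for the shorter core CACGTG, which lies within it. A window was at hand for 32 of the 40 genes. TCACGTGA was present in 4 of these 32 (12.5%), namely Ctsa, Ctsd, Gla and Mcoln1, which are 4 of 19 lysosomal genes (21.1%), and in 0 of 13 autophagy genes. Over all 27025 genes with a window the share was 1.12%, and over the 13166 of them that were tested for expression it was 1.91%. The core CACGTG was present in 8 of 19 lysosomal genes (42.1%; Lamp1, Mcoln1, Ctsa, Ctsd, Ctsl, Gla, Glb1 and Gaa) and in 2 of 13 autophagy genes (15.4%; Atg5 and Atg7), against 8.09% of all genes with a window and 10.8% of the tested ones. The stretches shown here are the upstream parts that hold the cores of the 6 lysosomal genes whose window lies at the annotated gene start, with each core in capitals. They are given 5′ to 3′ on the strand of the gene. Lamp1 has 4 cores, beginning at bases -61, -45, -28 and -15 from the start, and Gla is the 1 gene of the 6 in which both cores lie within TCACGTGA.
Lamp1, chr8:13159086-13159160, plus strand: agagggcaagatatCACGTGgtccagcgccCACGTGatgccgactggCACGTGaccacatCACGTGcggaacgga
Mcoln1, chr8:3500434-3500493, plus strand: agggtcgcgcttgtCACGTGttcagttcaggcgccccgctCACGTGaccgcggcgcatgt
Ctsd, chr7:142387906-142388077, minus strand: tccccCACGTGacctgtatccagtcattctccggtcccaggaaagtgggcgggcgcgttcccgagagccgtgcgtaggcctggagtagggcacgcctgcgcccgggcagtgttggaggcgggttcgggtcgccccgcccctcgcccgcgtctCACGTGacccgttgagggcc
Gla, chrX:134601180-134601246, minus strand: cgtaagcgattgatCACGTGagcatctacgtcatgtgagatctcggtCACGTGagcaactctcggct
Glb1, chr9:114401016-114401049, plus strand: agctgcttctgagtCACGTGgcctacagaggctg
Gaa, chr11:119267809-119267842, plus strand: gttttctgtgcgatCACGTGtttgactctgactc

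Of these 6 genes, Mcoln1, Gla and Gaa were called higher in quiescent McSC, while Lamp1, Ctsd and Glb1 were not called. Of the members with a window, the core CACGTG was present in 4 of 14 called higher in quiescent McSC, 1 of 4 called higher in melanocytes and 5 of 14 not called. A match is a description of letters and says nothing about binding in these cells. The element is known from promoters of lysosomal genes, so its larger share among them is not a finding of these data.

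Of the 40 genes, 16 were called higher in quiescent McSC, 4 were called higher in melanocytes and 20 were not called. A gene was called at an adjusted p under 0.05 by the quasi-likelihood test of edgeR over 16953 genes, the source of every adjusted p given here. Among all tested genes 55.4% were called, 26.2% higher in quiescent McSC and 29.1% higher in melanocytes, so the 20 of 40 called here lie near the background. The groups did not overlap in 24 of the 40 genes, against 74.5% of all tested genes. Among autophagy genes 10 of 18 were called higher in quiescent McSC, against 3 in melanocytes (72.2% called). Among lysosomal genes these counts were 6 of 22 and 1 (31.8% called). The median log2 fold change, taken as melanocyte minus quiescent McSC, was -0.62 over the autophagy genes, -0.27 over the lysosomal genes and 0.03 over all tested genes. With a call and at least a 2-fold change, 6 of the 40 genes were higher in quiescent McSC, all of the autophagy set. Among all tested genes this share was 16.7%, so the 6 of 40 lie near the background. By the same limits 1 of the 40, Wipi1, was higher in melanocytes, against 20.3% of all tested genes. Over both directions 37.0% of all tested genes passed these 2 limits. With library sizes left unscaled, the calls on the 40 genes were 15 for quiescent McSC against 8 for melanocytes, and 6 against 5 on the lysosomal genes, while the median of all tested genes moved from 0.03 to 0.26. With the 20 most abundant genes left out of unscaled library sizes the lysosomal calls were 6 and 3, and the median of all tested genes was 0.20.

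**Figure D1:**
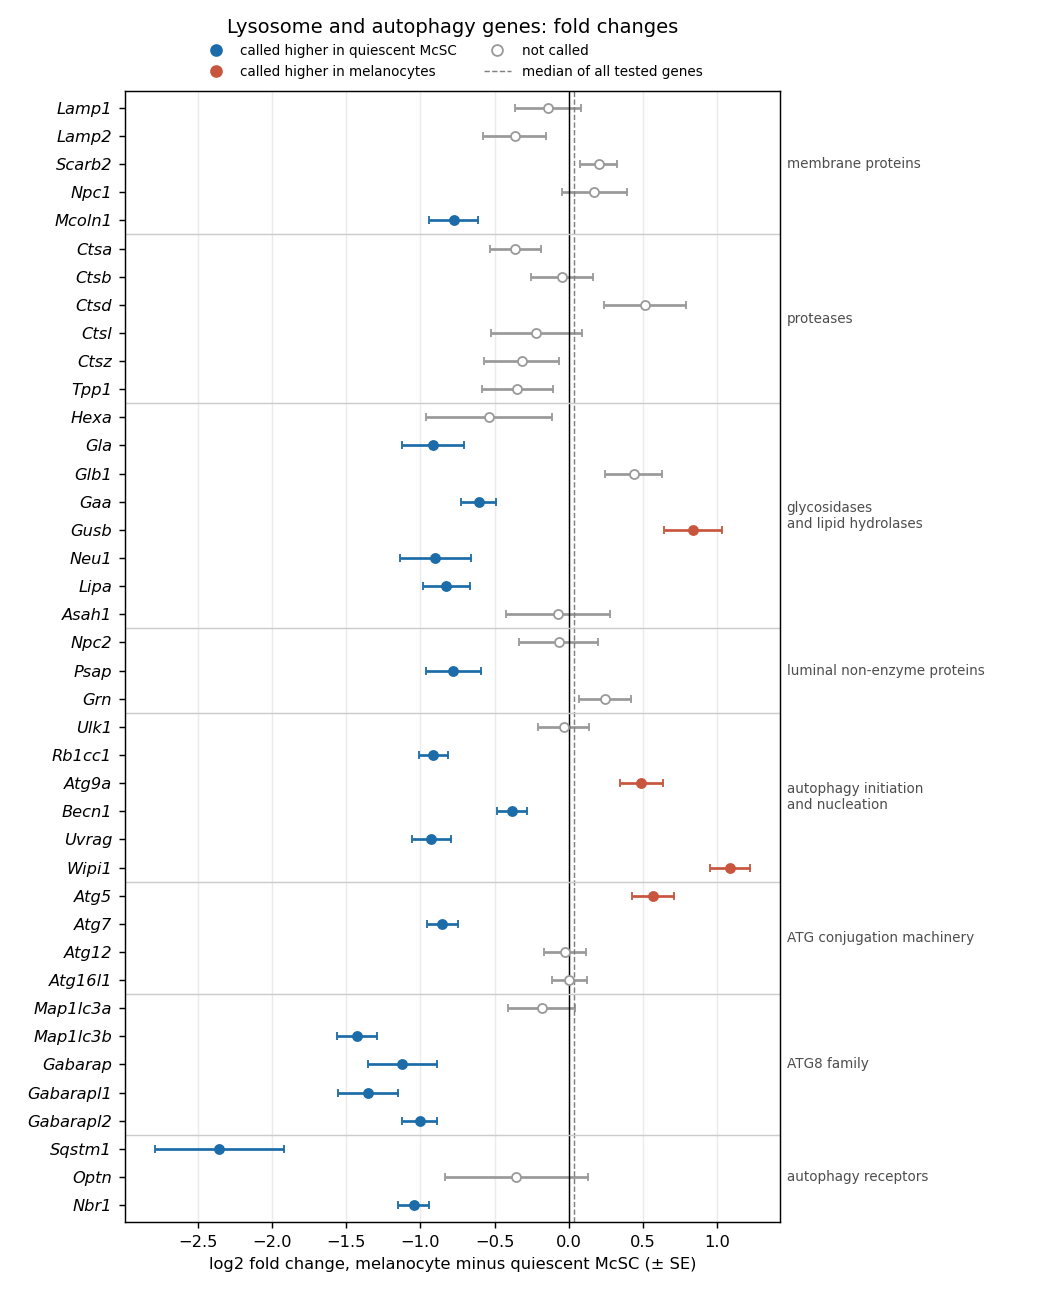
Log2 fold change of each of the 40 genes (x axis, melanocyte minus quiescent McSC, with SE bars), grouped by role. Filled points were called and open points were not, and the dashed line is the median of all tested genes at 0.03. The 4 called ATG8 genes, Nbr1 and Sqstm1 lie at or left of -1.01, and Wipi1 lies farthest right at 1.09.

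Lysosomal membrane proteins were mostly not called: 1 of 5, Mcoln1, was higher in quiescent McSC. Lamp1 (chromosome 8, 13159161 to 13175338), one of the abundant glycoproteins that line the lysosomal membrane, stood at 436.4 and 441.9 CPM in quiescent McSC and at 290.9, 472.1 and 433.3 CPM in melanocyte replicates 1, 2 and 3. The groups overlapped, and melanocyte replicate 1 was the lowest library (log2 fold change -0.14 ± 0.22 SE, adjusted p = 0.621). Lamp2, the related protein that also serves chaperone-mediated autophagy, stood at 440.9 and 404.7 CPM against 248.3, 396.5 and 339.5 CPM. Every melanocyte library lay below both quiescent McSC libraries, but the difference was not called (-0.37 ± 0.21, adjusted p = 0.187). Mcoln1, the TRPML1 calcium channel of the lysosome, stood at 64.7 and 69.2 CPM against 33.5, 36.9 and 47.3 CPM, with no overlap (1.71-fold higher in quiescent McSC; adjusted p = 0.00882). When quiescent McSC replicate 2 was left out, this call was lost, at an adjusted p of 0.0622. Scarb2, the receptor that carries glucocerebrosidase to the lysosome, and Npc1, a cholesterol exporter, had log2 fold changes of 0.20 and 0.17. Neither was called, and with library sizes left unscaled Scarb2 was higher in melanocytes (0.42, adjusted p = 0.0222).

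None of the 6 lysosomal proteases was called by edgeR, limma-voom or DESeq2, and 0 of the 6 had an unadjusted p under 0.05 in edgeR. Their log2 fold changes ran from -0.36 for Ctsa, the protective protein of β-galactosidase and neuraminidase, to 0.51 for Ctsd, the aspartic protease cathepsin D. Ctsd stood at 439.2 and 477.4 CPM in quiescent McSC and at 435.4, 791.1 and 735.1 CPM in melanocyte replicates 1, 2 and 3. Melanocyte replicates 2 and 3 lay above both stem cell libraries and replicate 1 just below them (adjusted p = 0.158). Without melanocyte replicate 1, Ctsd was called higher in melanocytes, at a log2 fold change of 0.74 and an adjusted p of 0.00385. Gm49369 covers 31.5% of the exonic bases of Ctsd. Exons of other genes also cover 28.2% of those of Ctsl, 22.3% of those of Ctsa and 16.3% of those of Ctsb. Counts of such overlapping genes may not be separable. Ctsb, a cysteine protease, was at 720.2 ± 9.12 CPM (SD, n = 2) in quiescent McSC and 697.6 ± 154.4 CPM (SD, n = 3) in melanocytes, a log2 difference of -0.05. Ctsl and Ctsz, also cysteine cathepsins, and Tpp1, a tripeptidyl peptidase, lay at -0.22, -0.32 and -0.35. Without melanocyte replicate 2, Tpp1 was called higher in quiescent McSC, at -0.60 and an adjusted p of 0.0479.

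Glycosidases and lipid hydrolases differed in both directions, with 4 of 8 called higher in quiescent McSC, against Gusb in melanocytes. Gla, the α-galactosidase that removes terminal galactose from glycolipids, stood at 39.9 and 38.6 CPM in quiescent McSC and at 15.6, 24.3 and 22.6 CPM in melanocytes. All melanocyte libraries were lower (-0.91 ± 0.21, adjusted p = 0.011). Neu1, a sialidase, stood at 52.2 and 65.7 CPM against 22.8, 32.9 and 39.3 CPM, again without overlap (-0.90 ± 0.24, adjusted p = 0.0203). Lipa, the acid lipase that frees cholesterol and fatty acids, stood at 30.9 and 30.8 CPM against 14.9, 19.6 and 17.7 CPM. The stem cell libraries were nearly equal and all melanocyte libraries lay lower (-0.82 ± 0.16, adjusted p = 0.00626). Gaa, the glycogen-degrading α-glucosidase, was 1.52-fold higher in quiescent McSC (adjusted p = 0.00565). Gusb (chromosome 5, 129989011 to 130003049), the β-glucuronidase, went the other way, at 28.0 and 25.0 CPM in quiescent McSC and 37.6, 56.5 and 47.9 CPM in melanocytes. Both stem cell libraries lay below all melanocyte libraries (0.84 ± 0.19, adjusted p = 0.0123). Glb1, the β-galactosidase, did not overlap between groups either, but its log2 fold change of 0.44 ± 0.19 was not called (adjusted p = 0.0963). Without melanocyte replicate 1, Glb1 was called higher in melanocytes (0.55, adjusted p = 0.0302). Hexa, a β-hexosaminidase subunit, and Asah1, the acid ceramidase, were not called (-0.54 and -0.07). Lipa and Gaa kept their calls in every alternative fit, although not always far from the threshold of 0.05. Those of Gla and Gusb were lost when either quiescent McSC library was left out (adjusted p of 0.0653 and 0.0589 for Gla, 0.0543 and 0.0887 for Gusb), and that of Neu1 without quiescent McSC replicate 2 (0.133).

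Of the luminal proteins that are not enzymes, Psap was higher in quiescent McSC and Npc2 and Grn were not called. Psap (chromosome 10, 60277628 to 60302600), the precursor of the saposins that help lipid hydrolases reach their substrates, stood at 818.1 and 896.1 CPM in quiescent McSC and at 400.4, 560.1 and 539.4 CPM in melanocytes. The groups were well apart (1.71-fold, -0.78 ± 0.19, adjusted p = 0.0139), although leaving out quiescent McSC replicate 1 or 2 gave an adjusted p of 0.0573 or 0.089. Npc2, which hands cholesterol to NPC1, had a log2 fold change of -0.07, and Grn, progranulin, had 0.24.

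**Figure D2:**
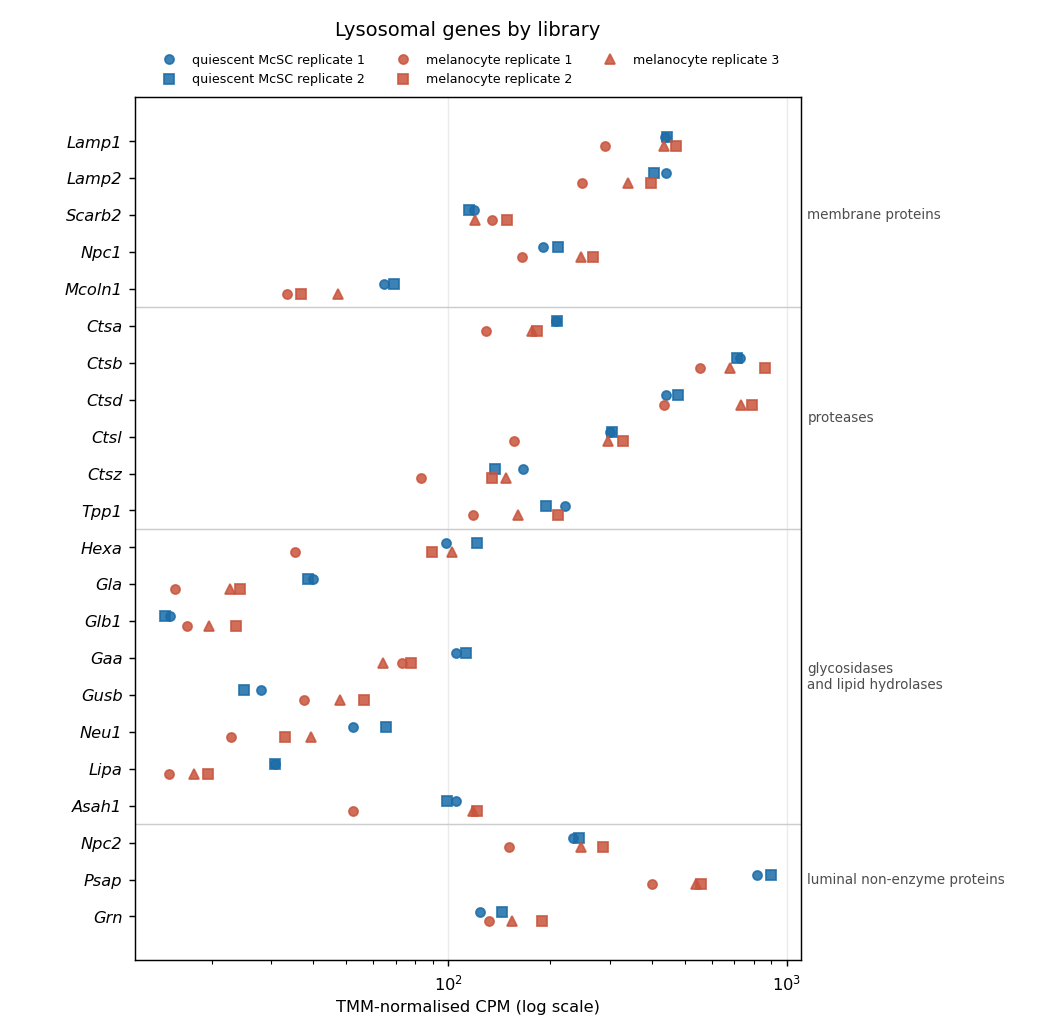
TMM-normalised CPM (log scale) of the 22 lysosomal genes in each of the 5 libraries, quiescent McSC in blue and melanocytes in red, with 1 marker shape per replicate. Psap, Gla, Lipa, Neu1, Gaa, Mcoln1, Lamp2 and Ctsa have both blue points to the right of all red points. Gusb, Glb1 and Scarb2 have them to the left of all red points. For most genes melanocyte replicate 1 (red circle) is the leftmost red point.

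Melanocyte replicate 1 gave the lowest level of the 3 melanocyte libraries in 20 of 22 lysosomal genes, including all 6 proteases. The same held for 36.2% of the 16595 genes with counts in all 3 melanocyte libraries. Its median log2 ratio to replicate 3 was -0.47 over the lysosomal genes, -0.17 over the autophagy genes and 0.01 over all genes. Of the autophagy genes, 12 of 18 were lowest in replicate 1. Among them the median ratio was -1.63 over the 3 receptors and -0.62 over the 5 ATG8 genes. Over the conjugation and initiation genes it was -0.094 and -0.015. The ratio was -2.60 over the 9 melanocyte markers, all of which were lowest there, and 1.72 over the fibroblast and dermal papilla markers and 0.93 over the keratinocyte markers, none of which were. The deepest fall among lysosomal genes was that of Hexa, at 35.2 CPM against 89.7 and 102.9 CPM. Quiescent McSC libraries lay closer together, and no gene of the 40 differed by more than 1.26-fold between them. The median SD of log2 CPM over the 40 genes was 0.059 in quiescent McSC and 0.271 in melanocytes. Over all tested genes with counts it was also smaller in quiescent McSC (0.133 against 0.232). Leaving out melanocyte replicate 1 moved the median of the lysosomal genes from -0.27 to -0.03, and 6 were then called higher in quiescent McSC and 4 in melanocytes (Gusb, Ctsd, Npc1 and Glb1). For autophagy genes the calls without that library were again 10 and 3, with a median of -0.57. The part of other cells in replicate 1 in these differences was not tested.

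**Figure D3:**
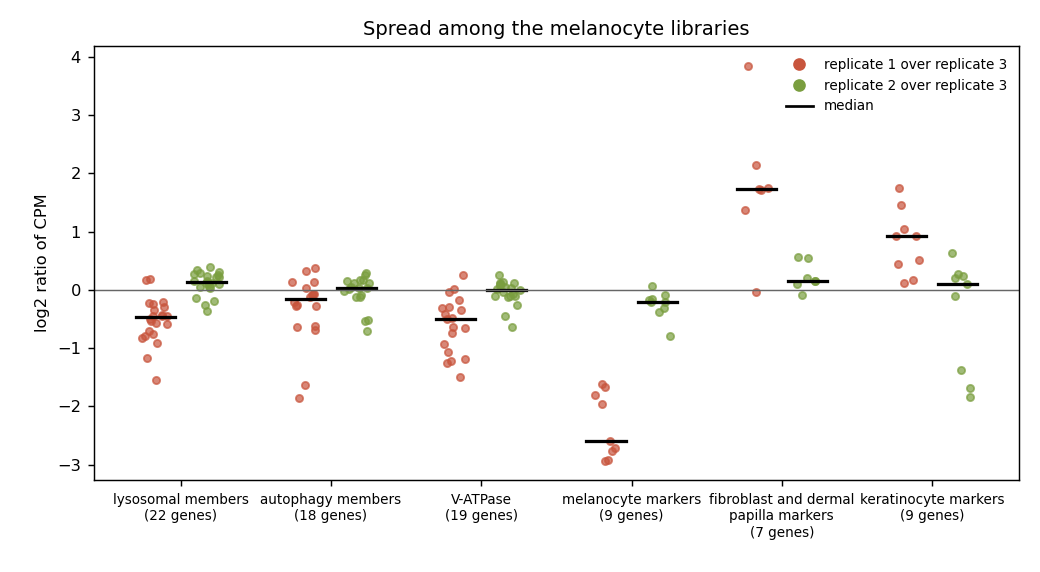
Log2 ratio of CPM between melanocyte libraries, replicate 1 over 3 (red) and replicate 2 over 3 (green), with 1 point per gene and a bar at each median. The red medians are below 0 for lysosomal genes (-0.47), autophagy genes (-0.17), the vacuolar ATPase (-0.50) and melanocyte markers (-2.60). They are above 0 for fibroblast (1.72) and keratinocyte markers (0.93).

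Genes that start the autophagic membrane split by direction: Rb1cc1, Uvrag and Becn1 were higher in quiescent McSC, Wipi1 and Atg9a were higher in melanocytes, and Ulk1 was not called. Wipi1 (chromosome 11, 109573521 to 109611389), which binds phosphatidylinositol 3-phosphate on the growing membrane, stood at 49.8 and 42.0 CPM in quiescent McSC and at 90.3, 107.2 and 94.8 CPM in melanocytes. All melanocyte libraries lay above both stem cell libraries (2.12-fold, 1.09 ± 0.13, adjusted p = 0.00108), and the call held in every alternative fit. Atg9a, a lipid scramblase carried on vesicles to the growing membrane, stood at 43.8 and 50.4 CPM against 71.7, 69.5 and 57.0 CPM. The groups did not overlap (0.49 ± 0.14, adjusted p = 0.0281), but 42.6% of its exonic bases lie within exons of Ankzf1 and Gm29253. Ankzf1 itself was at 27.4 and 32.9 CPM in quiescent McSC and 46.8, 31.1 and 37.4 CPM in melanocytes. The call on Atg9a was lost when either stem cell library or melanocyte replicate 2 was left out (adjusted p of 0.167, 0.068 and 0.0927). Rb1cc1, the FIP200 scaffold of the ULK1 complex, was at 132.4 ± 0.671 CPM (SD, n = 2) in quiescent McSC and 70.4 ± 4.17 CPM (SD, n = 3) in melanocytes (adjusted p = 0.000673). Uvrag, a subunit of beclin 1 complexes, was at 59.2 ± 3.71 CPM (SD, n = 2) and 31.2 ± 3.42 CPM (SD, n = 3), a difference of -0.92 ± 0.13 (adjusted p = 0.00196). Exons of Cntd1, a gene at 2.67 to 3.99 CPM in the 5 libraries, cover 29.6% of the exonic bases of Becn1. Becn1, beclin 1 itself, was 1.31-fold higher in quiescent McSC (adjusted p = 0.019). Its call was lost with library sizes left unscaled (0.163), with the 20 most abundant genes also left out of them (0.0848), and when either stem cell library or melanocyte replicate 3 was left out (0.0897, 0.103 and 0.0571). Ulk1, the kinase that begins the process, was at 91.6 ± 8.33 and 89.4 ± 16.9 CPM.

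Of the 4 genes that couple ATG8 to lipid, Atg7 was higher in quiescent McSC, Atg5 was higher in melanocytes and the other two were not called. Atg7, the E1-like enzyme that activates both ATG12 and ATG8, was at 104.0 ± 1.35 CPM (SD, n = 2) and 57.6 ± 3.84 CPM (SD, n = 3), a difference of -0.85 ± 0.10 (adjusted p = 0.00098). Atg5, which joins ATG12 and ATG16L1 in the complex that places ATG8, stood at 35.6 and 37.4 CPM in quiescent McSC and 47.9, 62.01 and 52.1 CPM in melanocytes. The groups did not overlap (0.57 ± 0.14, adjusted p = 0.0169). Leaving out either quiescent McSC replicate took its call away (0.103 and 0.0772). Atg12 and Atg16l1, the partners of Atg5, had log2 fold changes of -0.03 and 0.00. Whether they differ from Atg5 in their response was not tested.

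Of the 5 ATG8 genes, 4 were called higher in quiescent McSC, by 2.01 to 2.69-fold. Map1lc3b (chromosome 8, 121590438 to 121598760), LC3B, the usual marker protein of autophagosomes, stood at 286.8 and 301.0 CPM in quiescent McSC and at 96.1, 121.0 and 110.9 CPM in melanocytes. Every melanocyte library was under both stem cell libraries by a wide gap (-1.43 ± 0.13, adjusted p = 0.000394). Gabarapl1 (chromosome 6, 129533192 to 129542331) stood at 193.1 and 207.8 CPM against 58.2, 88.2 and 89.4 CPM (-1.35 ± 0.20, adjusted p = 0.0022). Gabarap (chromosome 11, 69991370 to 69994949), the founding member of its subfamily, stood at 410.1 and 431.0 CPM against 136.2, 225.2 and 219.1 CPM (-1.12 ± 0.23, adjusted p = 0.00777). In both, melanocyte replicate 1 was the lowest library and no melanocyte library reached the stem cell level. Gabarapl2 (chromosome 8, 111940703 to 111952915), known as GATE-16, stood at 98.7 and 98.3 CPM against 43.9, 50.1 and 53.2 CPM (-1.01 ± 0.12, adjusted p = 0.000839). Map1lc3a (chromosome 2, 155276364 to 155278073), LC3A, was the exception, at 56.1 and 55.4 CPM against 42.0, 40.2 and 65.5 CPM. Its groups overlapped because melanocyte replicate 3 was the highest of all libraries (-0.18 ± 0.23, adjusted p = 0.525).

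Summed over the 5 ATG8 genes, the level was 1045 and 1093 CPM in quiescent McSC and 376.3, 524.8 and 538.1 CPM in melanocytes. The 4 calls held in every alternative fit, although that of Gabarap came just under the threshold of 0.05. Leaving out melanocyte replicate 3 called Map1lc3a higher in quiescent McSC as well (-0.44, adjusted p = 0.0356). The coding sequences of Map1lc3a and Map1lc3b are 76.6% identical where aligned and those of Gabarap and Gabarapl1 74.6%, with no identical run longer than 17 bases between any pair of the family. Levels per kilobase were divided by the joined exons of all annotated transcripts of a gene, not by the length of the expressed transcript. On this scale Gabarap was the highest of the family in both groups. It was at 311.3 ± 10.9 CPM per kilobase (SD, n = 2) in quiescent McSC and 143.2 ± 36.8 (SD, n = 3) in melanocytes. Gabarapl1 followed in quiescent McSC, at 110.1 ± 5.72 CPM per kilobase. Gabarapl2, Map1lc3b and Map1lc3a lay close together there, at 58.7, 56.7 and 50.1 CPM per kilobase. In melanocytes Map1lc3a (44.3 ± 12.7) and Gabarapl1 (43.2 ± 9.74) did not differ beyond their spread, and Gabarapl2 (29.3 ± 2.82) and Map1lc3b (21.1 ± 2.42) were lower.

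Cargo receptors held the largest single difference of the 40 genes. Sqstm1 (chromosome 11, 50200152 to 50210820), p62, which binds ubiquitin-marked cargo and ATG8 and is itself degraded by autophagy, stood at 1454 and 1593 CPM in quiescent McSC and at 143.1, 310.0 and 442.4 CPM in melanocyte replicates 1, 2 and 3. No melanocyte library came near the stem cell libraries, and the melanocyte libraries spanned 3.09-fold among themselves. It was 5.11-fold higher in quiescent McSC (-2.35 ± 0.44, adjusted p = 0.00519). The call held in all 13 alternative fits, with log2 fold changes from -2.85 to -2.01. Of its exonic bases 20.5% lie in exons of Mrnip, a gene at 3.37 and 3.63 CPM in quiescent McSC and 6.44 to 7.99 CPM in melanocytes. Nbr1, a receptor related to p62, stood at 244.6 and 249.8 CPM against 126.7, 118.0 and 115.0 CPM. The groups were narrow and apart (-1.04 ± 0.10, adjusted p = 0.000505). Optn, optineurin, a receptor for damaged mitochondria and bacteria, was not called (-0.35 ± 0.48, adjusted p = 0.56). It stood at 61.6 and 53.6 CPM in quiescent McSC and at 19.0, 47.8 and 68.9 CPM in melanocytes, the widest within-group span of the 40 genes at 3.63-fold. Immediate early genes, 10 of 10 of them, were higher in the same quiescent McSC libraries, and their part in the levels of the receptors and ATG8 genes was not tested.

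**Figure D4:**
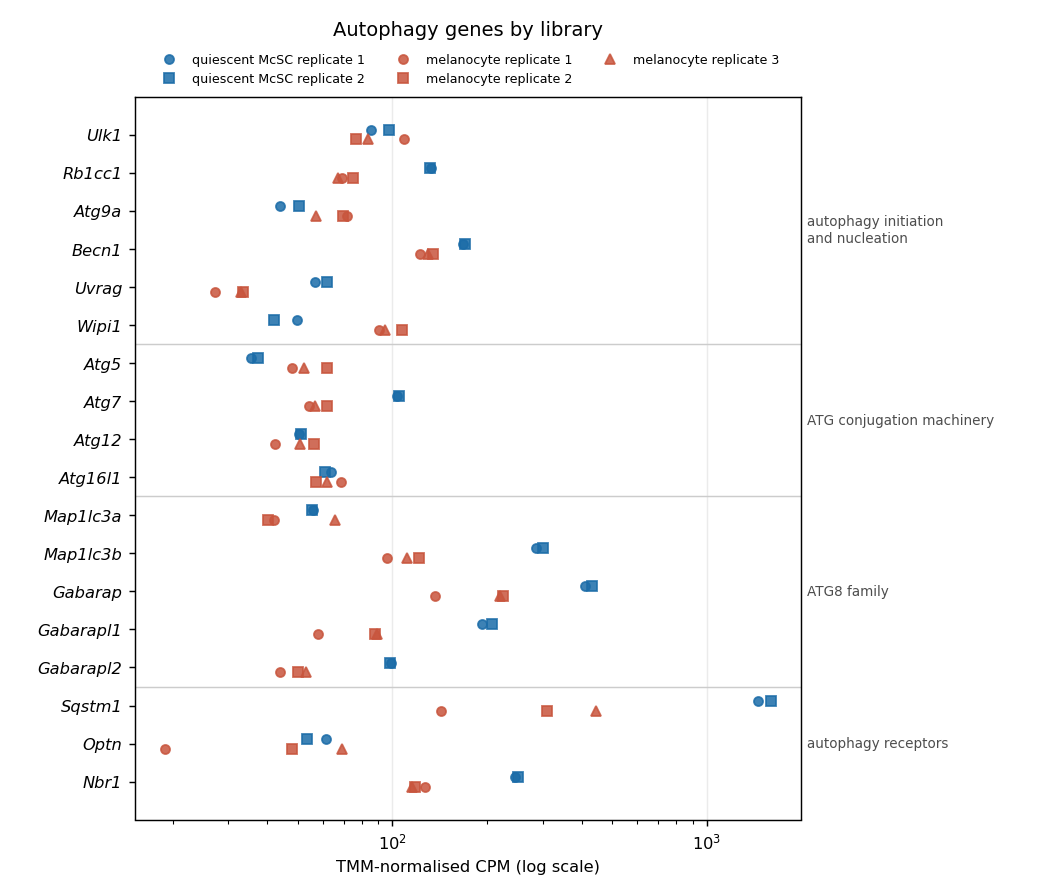
TMM-normalised CPM (log scale) of the 18 autophagy genes in each of the 5 libraries, quiescent McSC in blue and melanocytes in red, with 1 marker shape per replicate. Blue points lie right of all red points for Sqstm1, Nbr1, 4 ATG8 genes, Rb1cc1, Uvrag, Becn1 and Atg7. They lie left of all red points for Wipi1, Atg5 and Atg9a.

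On the scale of CPM per kilobase of joined exons, which compares genes only roughly, Sqstm1 was the highest of the 40 in quiescent McSC, at 539.7 ± 34.7 (SD, n = 2). Psap (312.4 ± 20.1) and Gabarap (311.3 ± 10.9) followed and did not differ beyond their spread. In melanocytes the highest was Ctsd, at 307.4 ± 89.9 (SD, n = 3), with Psap (182.2 ± 31.7), Lamp1 (178.9 ± 42.8), Ctsb (147.1 ± 32.5) and Gabarap (143.2 ± 36.8) next, and neighbours in that order lay within their spread apart from the gap under Ctsd. Lamp1 nonetheless lay above Ctsb in each melanocyte library (130.5 against 116.6, 211.8 against 181.4 and 194.4 against 143.3 in replicates 1 to 3). The order of Psap and Lamp1, and that of Ctsb and Gabarap, changed between these libraries. Sqstm1 was at 105.7 ± 53.1 in melanocytes. Glb1 was the lowest in quiescent McSC (6.19 ± 0.125), and Lipa (5.86 ± 0.782), Uvrag (6.05 ± 0.664) and Gla (6.57 ± 1.46) were the lowest in melanocytes.

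The MiT/TFE genes, whose products bind the CLEAR element, included 1 call. Mitf stood at 1177 and 1033 CPM in quiescent McSC and at 43.7, 120.5 and 139.4 CPM in melanocytes, with no overlap (10.9-fold, adjusted p = 0.00164). Tfeb stood at 97.8 and 143.1 CPM against 39.5, 129.5 and 192.2 CPM, with both extremes among the melanocytes (adjusted p = 0.997). Tfe3, at 60.01 and 56.5 CPM against 55.4, 50.6 and 50.9 CPM, and Tfec, under 0.3 CPM in all libraries, were not called (adjusted p of 0.246 and 0.621). Of the lysosomal genes with TCACGTGA in their windows, Gla and Mcoln1 were higher in quiescent McSC, while Ctsa and Ctsd were not called.

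Other genes of the pathways, from lists that do not contain the 40 genes, gave the following counts, to be read against the 26.2% of all tested genes called higher in quiescent McSC and the 29.1% called higher in melanocytes. Of 22 other autophagy core genes, edgeR called 12 higher in quiescent McSC, against 0 in melanocytes, with a median log2 fold change of -0.54. DESeq2, limma-voom and an unadjusted p under 0.05 also gave 0 higher in melanocytes. Vmp1, an endoplasmic reticulum scramblase needed for autophagosome formation, had the largest difference, at 2123 and 1646 CPM against 53.4, 77.4 and 65.1 CPM (-4.85 ± 0.23). The gene of the microRNA Mir21a overlaps 3.3% of its exonic bases. Atg16l2, a relative of Atg16l1, was at -2.86 ± 0.31, while Atg16l1 was not called. Of 18 other receptors and fusion genes, 7 were higher in quiescent McSC, led by Rubcn (-1.51), a beclin 1 complex protein that restrains maturation, and Calcoco1 (-1.29), a receptor. Without quiescent McSC replicate 1 that count was 4. Only Wdfy3, a scaffold for aggregate clearance, was higher in melanocytes in that list (0.59).

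Of 32 other lysosomal hydrolases and cofactors, quiescent McSC had 7 at a higher level, against 6 for melanocytes, with a median of -0.05. The balance was not stable. Leaving out the stem cell libraries 1 or 2 in turn gave 5 against 3 and 4 against 5, leaving out melanocyte replicate 1 gave 8 against 11, and unscaled library sizes gave 6 against 9. Arsa, arylsulfatase A, and Ppt1, a palmitoyl-protein thioesterase, were higher in quiescent McSC (-1.55 and -0.92), and Hyal2, a hyaluronidase, and Acp5, tartrate-resistant acid phosphatase, were higher in melanocytes (2.07 and 2.10). Those melanocyte libraries also held more RNA of 8 of 10 macrophage and all 7 fibroblast markers, whose part in these calls was not tested. Of 19 other membrane proteins tested, 9 were higher in quiescent McSC, among them Cln3 (-1.22) and Mfsd8 (-1.19), both genes of neuronal ceroid lipofuscinoses. By edgeR, DESeq2, limma-voom or an unadjusted p under 0.05, 0 of the 19 were higher in melanocytes, while unscaled library sizes gave 1. Lamp3 did not pass the filter. Of 19 subunits and accessory proteins of the vacuolar ATPase, the pump that acidifies the lysosome, 4 were higher in quiescent McSC, including Atp6v1f (-0.76) and Atp6ap1 (-0.58), against 0 in melanocytes by edgeR. At an unadjusted p under 0.05, and with DESeq2 or limma-voom, 1 was higher in melanocytes. In the ATPase list, too, melanocyte replicate 1 was the lowest melanocyte library for 17 of 19 genes, and without it quiescent McSC had 7 called higher, against 4 for melanocytes. Leaving out either stem cell library gave 1 and 0, and unscaled library sizes gave 3 and 2.

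Of 13 genes of mannose 6-phosphate tagging and Golgi sorting, quiescent McSC had 7 at a higher level, against 3 for melanocytes (5 and 4 with unscaled library sizes). Sort1, sortilin, was 4.24-fold higher in quiescent McSC, and Gnptg, a subunit of the enzyme that starts the mannose 6-phosphate tag, was 2.04-fold higher. Cln6, an endoplasmic reticulum protein of enzyme export, and Gga2, a clathrin adaptor, were 2.01 and 1.94-fold higher in melanocytes. The complex mTORC1 is a kinase complex that sits on the lysosome and restrains autophagy. Of 19 genes of its subunits, its lysosomal anchor and its regulators, 7 were higher in quiescent McSC, against 4 in melanocytes. Leaving out either stem cell library or melanocyte replicate 2 gave 5 against 1, leaving out melanocyte replicate 3 gave 5 against 2, and unscaled library sizes gave 4 against 6. Tsc1 and Fnip1, which belong to complexes upstream of mTORC1, were 2.54 and 3.34-fold higher in quiescent McSC. Mlst8, an mTORC1 subunit, and Lamtor5, part of its lysosomal anchor, were 2.08 and 1.46-fold higher in melanocytes. Among other subunits, Mtor was also higher in melanocytes (log2 fold change 0.46) and Rptor was not called (-0.09). Deptor was higher in quiescent McSC (-1.54).

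**Figure D5:**
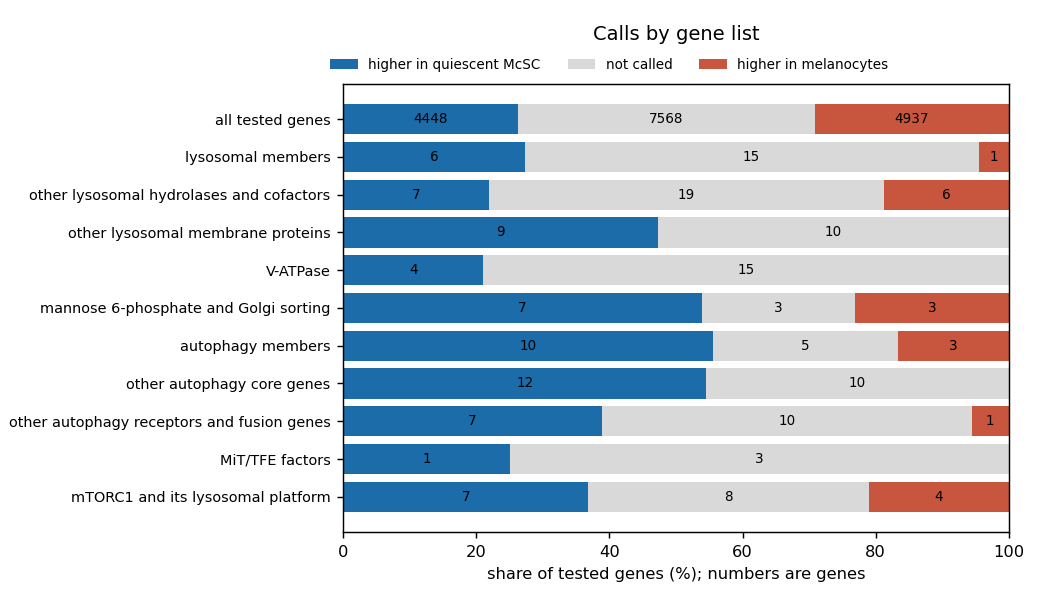
Share of tested genes in each list that were called higher in quiescent McSC (blue), called higher in melanocytes (red) or not called (grey), with the number of genes in each bar. Among all tested genes the calls were 4448 for quiescent McSC against 4937 for melanocytes, while 10 of 18 autophagy members and 12 of 22 other autophagy core genes had their call in favour of quiescent McSC.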

How the data were processed

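The authors deposited raw counts per gene and library, listed by Entrez identifier, with no normalization or pooling found in the values. The submitters' processing notes name mm10, STAR 2.5.2a and Salmon 0.8.2 but give them no roles. Which program counted reads per gene, its annotation and its use of strand is not given in the sources used here, so reads of overlapping genes cannot be told apart. Identifiers were matched to RefSeq symbols for 24045 of 24100 genes, and 3738 genes had no counts.

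All 5 libraries entered one fit without covariates. After filterByExpr and TMM normalization, genes were tested with the two-sided quasi-likelihood test of edgeR 4.0.16 (R 4.3.3), with Benjamini-Hochberg adjustment over 16953 genes and a threshold of 0.05. The procedure was tested on simulated counts in which a small set of genes was changed by known folds. That setting holds neither the many differing genes nor the outlying melanocyte library of these data, so it cannot vouch for the results here. Each SE is the absolute log2 fold change over the square root of F. Replicates are biological per the labels. With 2 against 3 libraries, a permutation of labels cannot give a two-sided p below 0.1, so no such test was used. Depth differed 7.11-fold between libraries, and the smallest count of a member in any library was 331.

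Alternatives were DESeq2 size factors, unscaled library sizes, leaving the 20 most abundant genes out of unscaled library sizes, no filter, a filter of 5 CPM in 2 libraries, DESeq2 1.42.0, limma-voom (limma 3.58.1), a replicate block and leaving out each library in turn. The members and gene lists were chosen with earlier results of these data known, so counts over lists are descriptions and no list was tested. Every member is named. Values per library are given for up to 5 called members per direction and class with the largest change, for Lamp1, Lamp2, Ctsd, Psap, Sqstm1 and the ATG8 and MiT/TFE genes. Other lists give up to 2 called genes per direction with the smallest p. Optn, and Mtor, Rptor and Deptor of the mTORC1 list, were added after their values were seen. Of 148 other pathway genes, 147 were in the table. Exonic lengths, overlaps and coding sequences came from GENCODE M21, and promoter windows from RefSeq (GRCm38.p6). The last bases of 33 of 35 member windows were found within a GENCODE transcript of the gene. That check did not compare the transcript starts. Protein sequences were not used here.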

Additional observations from a re-analysis of the deposited data

How the results depend on the processing

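Of the members called higher in quiescent McSC, 11 of 16 kept the call in all 13 alternatives (Gaa, Lipa, Rb1cc1, Uvrag, Atg7, Map1lc3b, Gabarap, Gabarapl1, Gabarapl2, Sqstm1 and Nbr1), and of those higher in melanocytes 1 of 4 did (Wipi1). The calls of Gabarap, Gaa and Lipa came close to the threshold of 0.05 in some of these fits. How many of all called genes kept their call in every alternative was not counted, so these shares have no background beside them. Where a value moved, the cause was not tested. No called member changed direction. When 1 library of quiescent McSC is left out, the other is assumed to vary like the melanocytes. With 2 libraries against 3, the number of libraries limits the precision of every value.

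Log2 fold changes of uncalled genes changed sign in several settings. With library size only they were 0.075 for Lamp1, 0.167 for Ctsb, 0.134 for Asah1, 0.144 for Npc2, 0.198 for Ulk1, 0.191 for Atg12, 0.042 for Map1lc3a, 0.209 for Tfeb and 0.069 for Tfe3. With the 20 most abundant genes left out of library sizes they were 0.027 for Lamp1, 0.119 for Ctsb, 0.088 for Asah1, 0.097 for Npc2, 0.145 for Ulk1, 0.142 for Atg12, 0.163 for Tfeb and 0.018 for Tfe3. Atg16l1 was at -0.006 with DESeq2 size factors and with DESeq2 and at -0.003 with limma-voom, and Tfeb was at 0.009 with the stricter filter. Leaving out 1 library at a time gave -0.307 to 0.049 for Lamp1, -0.252 to 0.101 for Ctsb, -0.453 to 0.049 for Ctsl, -0.296 to 0.232 for Asah1, -0.295 to 0.163 for Npc2, -0.194 to 0.060 for Ulk1, -0.150 to 0.083 for Atg12, -0.063 to 0.042 for Atg16l1, -0.780 to 0.018 for Optn and -0.506 to 0.420 for Tfeb. The highest values of Lamp1, Ctsb, Ctsl, Asah1, Npc2, Atg12, Optn and Tfeb came without melanocyte replicate 1.

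Counts higher in melanocytes with library size only were 8 for all members, 5 for lysosomal members, 1 each for lysosomal membrane proteins, proteases, luminal proteins, other membrane proteins and other autophagy core genes, and 2 each for glycosidases with lipid hydrolases and the V-ATPase. Genes of the mTORC1 list higher in quiescent McSC fell from 7 to 4 there and with the 20 most abundant genes left out. The latter setting gave 3 lysosomal members, 1 membrane protein, 2 glycosidases or lipid hydrolases, 2 V-ATPase genes and 1 other core gene higher in melanocytes. V-ATPase genes higher in melanocytes numbered 1 with the stricter filter, DESeq2 and limma-voom. Searching promoters for CACGTG in place of TCACGTGA raised the members with a match from 4 to 10.

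Leaving out 1 library at a time gave the following ranges. Higher in melanocytes were 1 to 7 of all members, 0 to 4 lysosomal and 1 to 3 autophagy members, 0 to 1 membrane proteins, 0 to 1 proteases, 0 to 2 glycosidases and lipid hydrolases, 1 to 2 initiation genes and 0 to 1 conjugation genes. Among other genes these were 3 to 11 hydrolases, 0 to 1 membrane proteins, 0 to 4 V-ATPase genes, 0 to 1 receptors and fusion genes and 1 to 5 mTORC1 genes. Higher in quiescent McSC were 2 to 7 lysosomal members, 0 to 1 membrane proteins, 0 to 1 proteases, 2 to 4 glycosidases and lipid hydrolases and 0 to 1 luminal proteins. Among other genes these were 4 to 8 hydrolases, 1 to 7 V-ATPase genes and 4 to 10 receptors and fusion genes, and over all genes 2955 to 4857. The lowest count of lysosomal members higher in quiescent McSC, 2, and that of all genes, 2955, came without quiescent McSC replicate 2.

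Replicate numbers are shared by the groups but do not pair the samples: deviations from the group means correlated at 0.0455 for number 1 and -0.0712 for number 2 over 16953 genes. With the replicate block, the calls on members were 3 for melanocytes against 16 for quiescent McSC, and melanocyte replicate 3, which has no partner, carries no weight. Hexa gained a call for quiescent McSC in that fit (-0.960, adjusted p = 0.0447), while the adjusted p was 0.141 for Becn1 and 0.0523 for Atg5, so the count of 16 does not hold the same genes. In that fit 0 conjugation genes and 1 mTORC1 gene were higher in melanocytes, and 4 sorting genes and 4 other receptors and fusion genes were higher in quiescent McSC. Over all genes the block gave 3933 and 3479 calls.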
